A study of Arabidopsis thaliana with 8 samples.

Results

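The genes described here are the 7 single-repeat R3 MYB repressors of trichome formation, TCL1, TCL2, ETC2, TRY, CPC, ETC1 and ETC3, with the activators GL1 and GL3 that they act against and the target gene GL2. They are 10 of the 27197 Arabidopsis thaliana loci used, they were found by AGI locus, and they were gathered because TCL1 was lower in the 35S:NGA line than in wild type. Their RNA was measured by sequencing in carpels, the organs of the pistil, picked by hand at floral stages 8 to 13 from 15 inflorescences per sample. All plants were of the Columbia ecotype and were grown in soil under long days.

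The 8 libraries form 3 groups. WT is the wild type with 2 libraries. The nga group has 3 libraries, and its genotype label lists 4 NGATHA genes without naming alleles. The 35S:NGA group has 3 libraries of an overexpression line driven by the 35S promoter, a viral promoter that is active in most plant cells, and the label names neither the NGATHA gene driven nor how many lines were used. The NGATHA proteins are transcription factors with a B3 DNA-binding domain, and style and stigma development is known to need them. Whether libraries of a group came from separate plants is not stated, so the spread behind each p-value may be only technical.

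Trichomes are hair cells of the plant epidermis. They are specified by a complex of an R2R3 MYB protein such as GL1, a bHLH protein such as GL3 and the WD40 protein TTG1, which switches on GL2. The R3 MYB proteins carry a bHLH-binding MYB repeat but no activation domain, so they take the place of the R2R3 MYB in the complex, and some of them move into neighbouring cells. In wild-type Columbia, leaves and stems bear trichomes and the pistil is smooth.

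The 7 repressor genes share a second coding exon of 88 bases, which encodes the first part of the R3 repeat with part of the bHLH contact. It is shown because it is the stretch in which these genes can be compared base by base. Sequences were read from TAIR10.1 on the coding strand, 5′ to 3′, and capitals mark bases that differ from TCL1.
TCL1, chr2:12969766-12969853, minus strand: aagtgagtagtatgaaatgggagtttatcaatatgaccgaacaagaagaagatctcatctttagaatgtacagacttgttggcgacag
TCL2, chr2:12965198-12965285, minus strand: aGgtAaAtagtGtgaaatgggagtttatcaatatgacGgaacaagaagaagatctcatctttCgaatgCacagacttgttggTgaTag
ETC2, chr2:12961640-12961727, minus strand: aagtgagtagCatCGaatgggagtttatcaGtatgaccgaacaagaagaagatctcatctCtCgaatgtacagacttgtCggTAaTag
TRY, chr5:21583270-21583357, plus strand: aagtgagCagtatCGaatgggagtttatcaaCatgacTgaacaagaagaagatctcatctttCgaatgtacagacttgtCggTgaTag
CPC, chr2:19049946-19050033, minus strand: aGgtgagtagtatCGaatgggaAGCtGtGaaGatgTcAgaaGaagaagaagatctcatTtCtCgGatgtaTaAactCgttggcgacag
ETC3, chr4:460702-460789, plus strand: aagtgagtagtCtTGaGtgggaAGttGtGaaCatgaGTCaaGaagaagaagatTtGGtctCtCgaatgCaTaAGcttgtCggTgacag
ETC1, chr1:147452-147539, plus strand: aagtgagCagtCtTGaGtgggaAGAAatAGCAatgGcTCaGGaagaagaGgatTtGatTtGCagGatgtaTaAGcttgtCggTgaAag

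TCL2 and TRY each shared 89.8% of this exon with TCL1, and ETC2 shared 88.6%. CPC shared 78.4%, ETC3 72.7% and ETC1 64.8%. The closest pair was ETC2 and TRY at 92.0%, although TRY lies on chromosome 5 and ETC2 on chromosome 2. Over whole transcripts, the longest run identical to TCL1 was 29 bases in ETC2, 25 in TCL2 and 24 in TRY. Read length and the handling of reads with several matches are not stated in the labels or file headers, and how far the authors' counting could tell TCL1, TCL2, ETC2 and TRY apart was not tested.

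The values are RPKM, that is, read numbers divided by gene length and by the mapped reads of the library, which the authors deposited. Mapped reads ran from 23.1 M to 38.3 M per library, recovered from the steps between low values. The file headers put both WT libraries, nga 1 and nga 2 on lane 6, 35S:NGA 1 and 35S:NGA 2 on lane 7, and nga 3 and 35S:NGA 3 on lane 8, and 35S:NGA had no lane in common with WT. A lane term links these groups only through the nga libraries and rests on 1 library each of nga and 35S:NGA in lane 8. NGA4 was at 3.97 and 3.83 RPKM in WT and at 0.123 to 0.248 RPKM in nga, and NGA3 was at 102 to 166 RPKM in 35S:NGA against 4.81 and 5.47 RPKM in WT. In nga, NGA3 was at 2.56 to 2.97 RPKM. NGA1 was at 21.2 to 25.6 RPKM there against 23.5 and 23.9 RPKM in WT, and NGA2 at 7.73 to 14.9 RPKM against 8.15 and 9.50 RPKM, and levels over a whole gene do not show whether a transcript is intact. Library nga 2 stood apart in the clock gene CCA1, at 131.8 RPKM against 0.460 to 2.86 RPKM elsewhere, so calls are also given without it. All 8 carpel markers were above 1 RPKM in every library, and they summed to 397 and 401 RPKM in WT, 429 to 508 RPKM in nga and 408 to 483 RPKM in 35S:NGA. Single carpel markers differed in both directions in nga and in 35S:NGA. In nga, SHP2 was at 103 to 117 RPKM against 70.7 and 72.0 RPKM in WT. STK was at 57.6 to 103 RPKM in nga against 107 and 108 RPKM in WT. CRC was at 29.6 and 41.7 RPKM in WT and 7.39 to 19.2 RPKM in 35S:NGA, and SPT at 30.9 and 31.1 RPKM against 53.4 to 67.4 RPKM. AP1, which defines sepals and petals, was at 0.422 to 1.06 RPKM, and with AP3 summed to 18.1 and 18.3 RPKM in WT, 10.8 to 16.6 RPKM in nga and 11.3 to 17.2 RPKM in 35S:NGA. The tapetum regulator DYT1 was at 0 throughout, while LAP6 was at 10.3 to 28.6 RPKM and TKPR1 at 3.72 to 12.4 RPKM over the 8 libraries. The 8 tapetum and microspore markers summed to 14.6 and 33.5 RPKM in WT, 29.99 to 53.4 RPKM in nga and 22.8 to 31.0 RPKM in 35S:NGA. The summed level of 8 mature pollen markers was 19.9 to 47.6 RPKM in WT, 60.2 to 104 RPKM in nga and 51.7 to 186 RPKM in 35S:NGA. That of 7 green tissue markers was 2302 to 2421, 2734 to 5795 and 2535 to 5305 RPKM, with the highest values in nga 2 and 35S:NGA 3. The part of these differences in the results below was not tested.

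A locus was tested when it reached 1 RPKM in at least 2 libraries, which 17786 loci did. The test was limma on log2(RPKM + 1) with Benjamini-Hochberg adjustment over all of these, and genes with an adjusted p under 0.05 are said to be called. Differences are on that log2 scale with their standard error, and they understate the change of low genes. TCL1, TRY, ETC3, GL1 and GL2 passed this filter. TCL2, ETC2, CPC, ETC1 and GL3 did not, and were under 1 RPKM in every library. The 35S:NGA against WT contrast chose the genes, so their values there are a description with no test, as is TCL1 in 35S:NGA against nga.

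**Figure D1:**
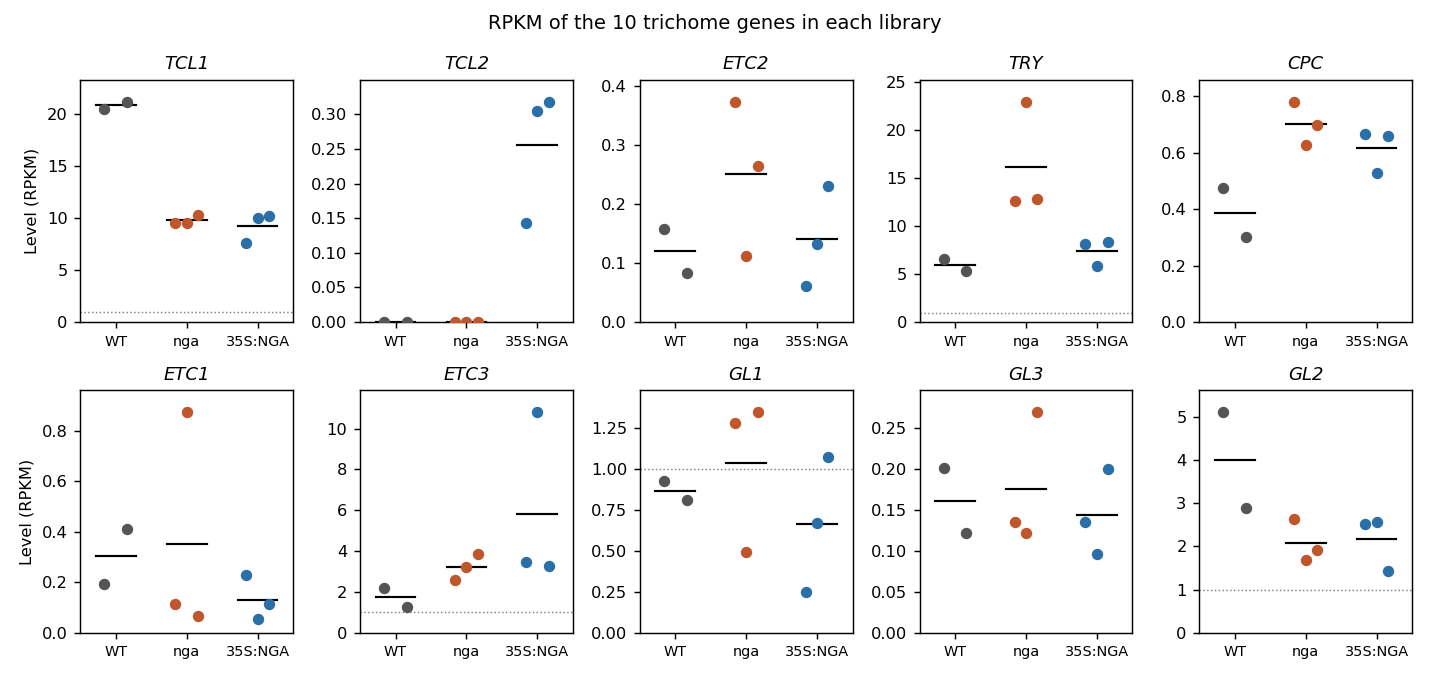
Level in RPKM (vertical axis, a separate linear scale for each gene) of the 10 genes in the 2 WT, 3 nga and 3 35S:NGA libraries. Each point is a library, each bar a group mean, and the dotted line marks 1 RPKM where it falls within the scale. TCL1 is at 20.4 and 21.2 RPKM in WT and at 10.3 RPKM or less in the other 6 libraries, and TRY is highest in the nga libraries.

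TCL1 (AT2G30432, TAIR10.1 chr2:12968565-12970240, minus strand) was the repressor gene with the highest level in wild-type carpels, and it was lower in both the mutant and the overexpression line. TCL1 is known to keep the inflorescence stem and pedicels free of trichomes and to act directly against GL1. Its level was 20.4 and 21.2 RPKM in WT. It was 9.49, 9.51 and 10.3 RPKM in nga. It was 7.60, 9.99 and 10.2 RPKM in 35S:NGA. Every nga and every 35S:NGA library was below both WT libraries, while nga and 35S:NGA overlapped.

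These levels rested on 408 and 399 reads in WT, on 161, 201 and 154 reads in nga and on 97, 179 and 175 reads in 35S:NGA. The exact Poisson 95% intervals, which cover counting error only, ran from 18.5 to 23.3 RPKM over the WT libraries and from 6.16 to 12.1 RPKM over the others. The mean was 20.8 ± 0.504 RPKM (SD, n = 2) in WT, 9.77 ± 0.474 RPKM (SD, n = 3) in nga and 9.26 ± 1.44 RPKM (SD, n = 3) in 35S:NGA. In these dissected organs, fewer cells of a type and less RNA per cell cannot be told apart.

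TCL1 fell by 1.02 ± 0.14 in nga against WT, 2.02-fold on the RPKM + 1 scale, with an adjusted p of 0.0113 in limma. The same WT libraries served in the contrast that picked TCL1. Within lane 6 alone TCL1 differed by -1.05 (adjusted p = 0.00891, limma), and without nga 2 by -1.0 (adjusted p = 0.0335). The call was lost without WT 1 (-1.04, adjusted p = 0.0786) and without WT 2 (-0.99, adjusted p = 0.133), each of which leaves WT as 1 library whose spread is assumed to be that of the other groups. Between 35S:NGA and WT the difference was -1.10, and between 35S:NGA and nga it was -0.08, which became 0.04 without 35S:NGA 1.

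The 250 bases before the annotated start of TCL1 are shown because SPL transcription factors, whose genes are described further on, are known to activate TCL1 and TRY and to recognise a GTAC core. The sequence is from TAIR10.1, and capitals mark GTAC.
TCL1 upstream, chr2:12970241-12970490, minus strand: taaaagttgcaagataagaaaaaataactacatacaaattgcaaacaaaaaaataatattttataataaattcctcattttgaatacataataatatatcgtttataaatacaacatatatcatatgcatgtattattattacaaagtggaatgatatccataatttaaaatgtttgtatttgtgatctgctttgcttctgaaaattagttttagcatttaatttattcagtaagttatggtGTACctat
GTAC reads the same on both strands, and its single match began 8 bases before the start. Of the 27443 protein-coding genes, 34.3% held GTAC in the same window, and of the 10 genes here TCL1, ETC3, GL1, GL3 and GL2 did. CACTTG, a sequence known to be bound by an NGATHA protein in a stress-induced promoter, was searched on both strands and was in 9.39% of windows. CACCTG, the core known for the B3 domain of the related RAV proteins, was searched likewise and was in 2.57%. Neither was in the window of any of the 10 genes, which says only that these letters are not there.

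TCL1 is 1 of 3 repressor genes that lie in a row on chromosome 2, and it was the only one of them above 1 RPKM. ETC2 (AT2G30420, chr2:12960847-12962162), TCL2 (AT2G30424, chr2:12962984-12965723) and TCL1 are all on the minus strand and together span 9394 bases. The gap from ETC2 to TCL2 is 821 bases, and that from TCL2 to TCL1 is 2841 bases. TCL2, which like TCL1 is known to repress trichomes on the inflorescence, had no read in either WT library or in any nga library, which allows up to 0.259 to 0.366 RPKM (3 reads) per library. It was at 0.143, 0.305 and 0.318 RPKM in 35S:NGA, or 1, 3 and 3 reads. Those counts are at or under the level of 3 reads, so no fold is given, and if the true gene length is a multiple of the 303 bases recovered they are multiples as well.

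ETC2 acts on trichome patterning in leaves, and was near the limit of detection in carpels. Its level was 0.159 and 0.0841 RPKM in WT. It was 0.374, 0.113 and 0.266 RPKM in nga and 0.0621, 0.133 and 0.231 RPKM in 35S:NGA, which is 1 to 8 reads per library over all 8 libraries. The groups overlapped in each pair.

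The nearest protein-coding genes on either side of the row were more abundant than TCL1. Neither was called in nga against WT, where 16.9% of all tested genes were. KIS (AT2G30410), a tubulin-folding cofactor needed for trichome shape, was at 67.7 and 65.9 RPKM in WT, 53.3 to 60.5 RPKM in nga and 57.6 to 61.9 RPKM in 35S:NGA, so that both WT libraries were highest here too. WT did not overlap nga for 57.1% of all tested genes or 35S:NGA for 46.5%. KIS differed by -0.24 ± 0.11 in nga against WT (adjusted p = 0.159, limma). TPP (AT2G30440), a thylakoid processing peptidase, was at 42.1 and 41.0 RPKM in WT, 38.4 to 53.8 RPKM in nga and 41.3 to 61.8 RPKM in 35S:NGA. It differed by 0.15 ± 0.20 in nga against WT (adjusted p = 0.615, limma). AT2G30430, which the annotation places between TCL2 and TCL1, was at 0 in all 8 libraries.

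**Figure D2:**
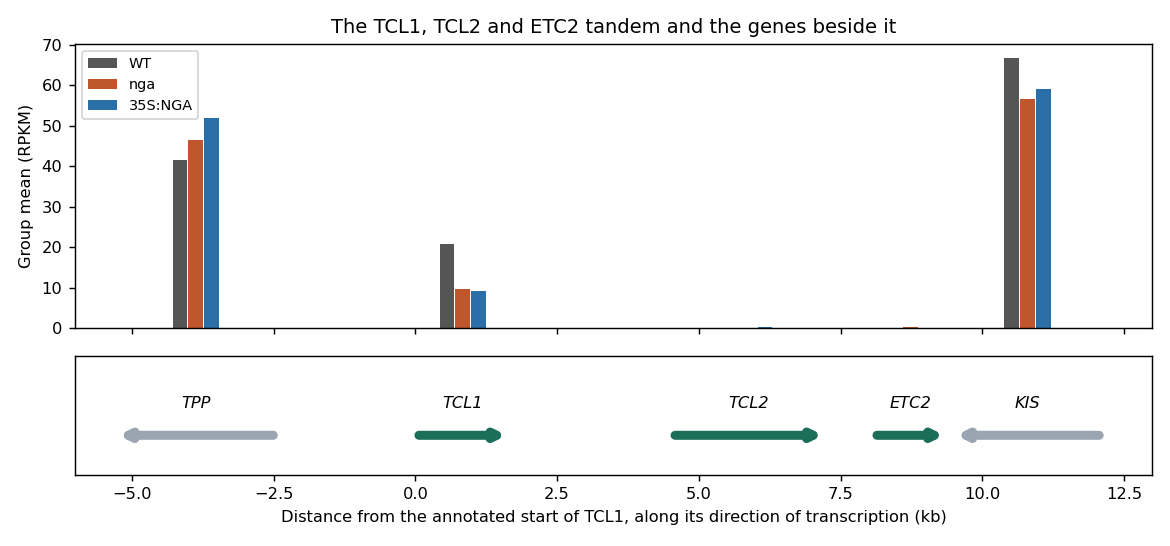
Upper panel, mean RPKM of each group (bars, from 0) at the place of each gene. Lower panel, the genes as arrows, against distance in kb from the annotated start of TCL1. Arrows of TCL1, TCL2 and ETC2 point in their direction of transcription, while the direction drawn for the neighbours was not read from the annotation. The green arrows are TCL1, TCL2 and ETC2 and the grey ones the neighbours TPP and KIS. TCL1 has means of 20.8, 9.77 and 9.26 RPKM, while TCL2 and ETC2 are too low to show beside it.

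TRY, the closest counterpart of TCL1 outside the row, was higher in the nga mutant, where TCL1 was lower. TRY (AT5G53200, chr5:21582614-21584243, plus strand) is known for lateral inhibition on leaves, where its loss gives clusters of trichomes. Its level was 6.60 and 5.35 RPKM in WT. It was 12.6, 23.0 and 12.8 RPKM in nga, and 8.18, 5.83 and 8.32 RPKM in 35S:NGA. All nga libraries were above all others, and WT and 35S:NGA overlapped.

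TRY rose by 1.25 ± 0.27 in nga against WT, 2.38-fold on the RPKM + 1 scale (adjusted p = 0.0247, limma). Its reads went from 154 and 118 in WT to 250, 567 and 223 in nga. The highest value was in nga 2, the library with the high CCA1 level and the highest green tissue sum, and without it TRY differed by 0.98 (adjusted p = 0.0427). Within lane 6 TRY differed by 1.38 (adjusted p = 0.0259, limma). The call was lost without WT 1 (1.38, adjusted p = 0.0958), without WT 2 (1.12, adjusted p = 0.210) and without nga 1 (1.39, adjusted p = 0.0545). Between 35S:NGA and nga TRY differed by -0.98 ± 0.24 and missed the threshold (adjusted p = 0.0575), and it was called without nga 3 (-1.11, adjusted p = 0.0353). With the lane as a term that difference was -0.57 (adjusted p = 0.585). Against WT, 35S:NGA differed by 0.27, and by 0.81 with the lane as a term.

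ETC3, which the files list as CPL3 (AT4G01060, chr4:460395-461246, plus strand), was the third repressor above 1 RPKM. It acts with TRY and CPC in trichome and root hair patterning and is also known for an effect on flowering time. Its level was 2.20 and 1.27 RPKM in WT and 2.59, 3.22 and 3.84 RPKM in nga. In 35S:NGA it was 3.45, 10.8 and 3.26 RPKM. All nga and 35S:NGA libraries were above both WT libraries, and 35S:NGA 2 stood high with 145 reads against 33 and 42 in the other 35S:NGA libraries.

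ETC3 differed by 0.63 ± 0.42 in nga against WT (adjusted p = 0.308, limma) and by 0.53 ± 0.38 in 35S:NGA against nga (adjusted p = 0.416), neither past the threshold. Without 35S:NGA 2 the latter was 0.06, and with the lane as a term it was -0.19. Against WT, ETC3 in 35S:NGA differed by 1.17, or 0.69 without 35S:NGA 2 and 0.34 with the lane as a term.

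CPC and ETC1 were under 1 RPKM in every library. CPC (AT2G46410, chr2:19049021-19050369, minus strand), known for root hair formation and for moving between epidermal cells, was at 0.473 and 0.301 RPKM in WT. It was at 0.780, 0.626 and 0.697 RPKM in the nga libraries and at 0.667, 0.527 and 0.660 RPKM in the 35S:NGA libraries. Both WT libraries were below the other 6, but each value rested on 6 to 14 reads and the Poisson intervals of WT 1, 0.227 to 0.871 RPKM, and of nga 1, 0.427 to 1.31 RPKM, overlapped. ETC1 (AT1G01380, chr1:147043-148014, plus strand), which acts with TRY and CPC, was at 0.195 and 0.412 RPKM in WT, 0.115, 0.874 and 0.0651 RPKM in nga, and 0.228, 0.0542 and 0.113 RPKM in 35S:NGA. Its highest value, 19 reads, was again in nga 2, and the groups overlapped.

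Set side by side, the repressor genes held different shares of their summed level in WT and nga. Over the 7 genes the sum was 29.3 ± 1.06 RPKM (SD, n = 2) in WT, 30.4 ± 6.04 RPKM (SD, n = 3) in nga and 23.7 ± 3.68 RPKM (SD, n = 3) in 35S:NGA, and the ranges overlapped between WT and nga but not between WT and 35S:NGA. The overlap rested on nga 2, at 37.3 RPKM, since nga 1 and nga 3, at 25.97 and 27.99 RPKM, were below both WT libraries, at 30.1 and 28.6 RPKM. TCL1 made up 68.0% and 74.0% of the sum in WT. Its share was 36.6%, 25.5% and 36.9% in the nga libraries and 37.4%, 36.2% and 44.1% in the 35S:NGA libraries. TRY made up 22.0% and 18.7% of it in WT, then 48.6%, 61.6% and 45.7% of it in nga, and 40.2%, 21.1% and 36.0% of it in 35S:NGA. These shares are a description and follow from the levels of TCL1 and TRY given before.

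TCL1 stood to TRY in a ratio of 3.10 and 3.95 in the WT libraries, of 0.753, 0.414 and 0.807 in the nga libraries, and of 0.929, 1.71 and 1.22 in the 35S:NGA libraries. The 3 groups did not overlap in this ratio, which is a description, since the ratio holds the TCL1 values that chose the genes. Single tested genes did not overlap in 57.1% of cases between nga and WT. For 35S:NGA that share was 46.5% against WT and 26.4% against nga, and the share among ratios of genes was not counted. TCL1 had the highest level of the 7 in both WT libraries and TRY in all nga libraries. Among the 35S:NGA libraries the highest was TRY in library 1, ETC3 in library 2 and TCL1 in library 3, so that no order of these 3 genes held over that group. ETC2, ETC1, CPC and TCL2 together added 0.797 to 1.61 RPKM to the sum in each library.

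**Figure D3:**
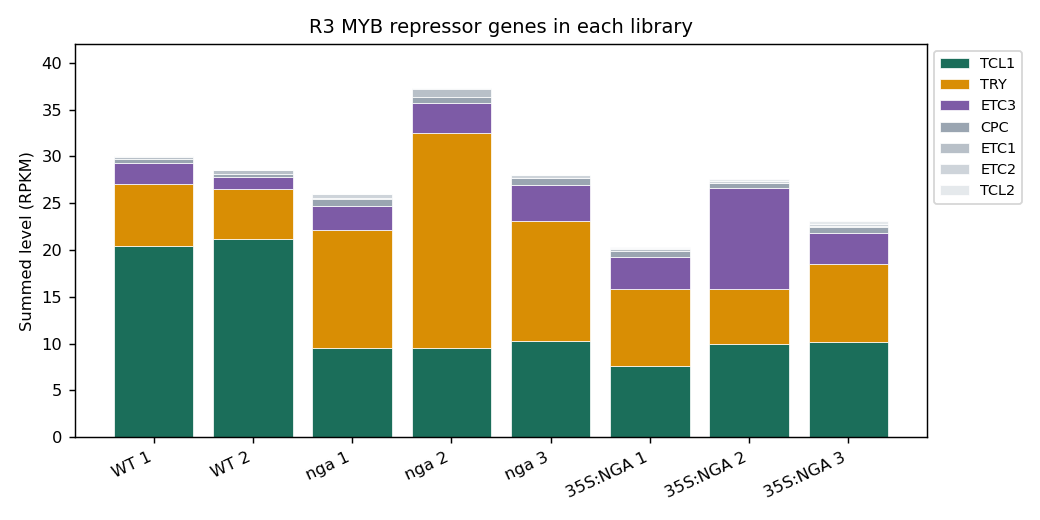
Summed level in RPKM of the 7 R3 MYB repressor genes in each of the 8 libraries (stacked bars, from 0), one colour per gene. TCL1 fills most of the bar in WT (68.0% and 74.0%) and TRY is the largest block in nga, while 35S:NGA 2 holds a large ETC3 block (39.1%).

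The partner genes GL1 and GL3 were low in all groups. GL1, listed as MYB0 in the files (AT3G27920, chr3:10361790-10363607, minus strand), encodes the R2R3 MYB of leaf trichome initiation and is a gene that TCL1 is known to repress. It was at 0.926 and 0.809 RPKM in WT, 1.28, 0.494 and 1.35 RPKM in nga, and 0.252, 0.672 and 1.08 RPKM in 35S:NGA, from 4 to 27 reads. The groups overlapped, and GL1 differed by 0.10 ± 0.28 in nga against WT (adjusted p = 0.818, limma) and by -0.29 ± 0.25 in 35S:NGA against nga (adjusted p = 0.503). GL1 passed the filter through nga 1, nga 3 and 35S:NGA 3, at 1.08 to 1.35 RPKM. GL3 (AT5G41315, chr5:16529090-16533287, plus strand), the bHLH partner, was at 0.201 and 0.121 RPKM in WT, 0.135, 0.122 and 0.269 RPKM in nga, and 0.135, 0.0958 and 0.200 RPKM in 35S:NGA. Its 6 to 14 reads per library and overlapping groups gave no difference that could be seen at this depth.

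GL2 (AT1G79840, chr1:30036956-30041440, plus strand), the homeodomain factor switched on by the activator complex, was more abundant than its regulators GL1 and GL3. It was at 5.10 and 2.90 RPKM in WT, 2.63, 1.68 and 1.91 RPKM in nga, and 2.53, 2.57 and 1.44 RPKM in 35S:NGA. Both WT libraries were above all others, yet they lay further from each other (549 and 295 reads) than WT 2 lay from nga 1. GL2 differed by -0.68 ± 0.26 in nga against WT, which did not pass the threshold (adjusted p = 0.107, limma), and the difference was -0.36 without WT 1 and -1.0 without WT 2. Between 35S:NGA and nga it differed by 0.04 ± 0.24 (adjusted p = 0.941), and in 35S:NGA against WT by -0.64.

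Of the 5 genes that passed the filter, TCL1 fell, TRY rose and ETC3, GL1 and GL2 were not called in nga against WT, where 16.9% of all tested genes were called, 7.65% lower and 9.26% higher. TCL1 was picked through the same WT libraries, and without it 1 of 4 was called. WT and nga values did not overlap for TCL1, TRY, ETC3 and GL2, as for 57.1% of all tested genes. For 35S:NGA against nga limma called 0 of the 4 genes other than TCL1, with TRY at an unadjusted p under 0.05, as were 24.7% of all tested genes, and 5.34% of all tested genes were called, 1.62% lower and 3.72% higher. Of these 4 genes TRY had no overlap between the groups, as had 26.4% of all tested genes, and of the untested genes TCL2 did not overlap either, with no read in nga and 1 to 3 reads in 35S:NGA. Among 35S:NGA and WT libraries 0.152% of all tested genes were called, 0.0675% lower and 0.0843% higher, and the groups did not overlap for 46.5%, with nothing read from this for the genes chosen on it. These shares move with single libraries, since the 3008 calls over all genes in nga against WT became 41 when WT 1 was left out, 47 when WT 2 was, and 491, 843 and 5135 when nga 1, nga 2 and nga 3 were left out in turn. Leaving out single libraries gave 355 to 2517 calls for 35S:NGA against nga and 1 to 284 for 35S:NGA against WT.

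**Figure D4:**
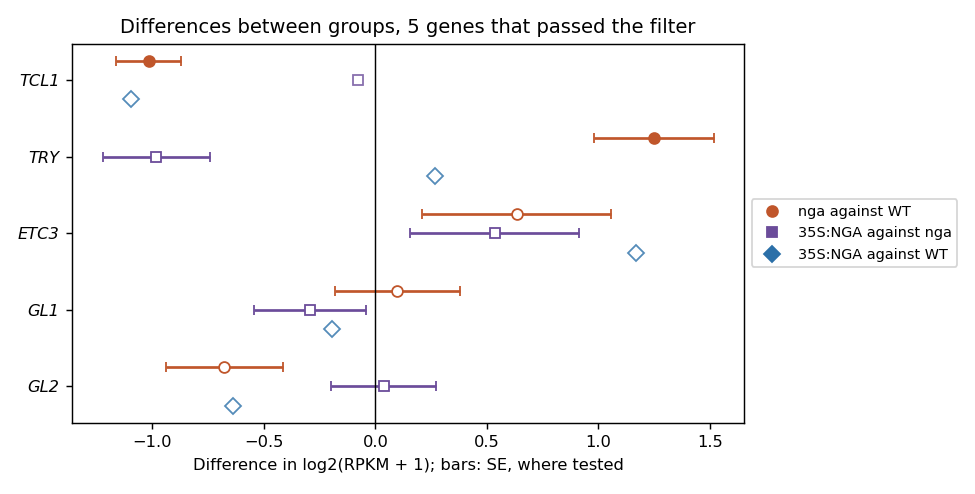
Difference in log2(RPKM + 1) (horizontal axis) of the 5 genes that passed the filter, for nga against WT (circles), 35S:NGA against nga (squares) and 35S:NGA against WT (diamonds, no test). Bars are standard errors, shown where a test was made, and filled symbols passed the threshold. TCL1 at -1.02 and TRY at 1.25, both in nga against WT, are the filled ones, and TCL1 was picked through the same WT libraries.

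The genes whose levels over the 8 libraries were most like those of TCL1 were taken by the mean absolute difference of log2(RPKM + 1) values, each gene centred on its own mean, among 17785 other loci. The closest was AT5G45280, annotated in the files as a pectin acetylesterase family protein, with a mean difference of 0.0986. It was at 12.4 and 12.7 RPKM in WT, 6.00, 4.98 and 6.06 RPKM in nga, and 5.44, 6.90 and 6.33 RPKM in 35S:NGA. AAE18 (AT1G55320), an acyl-activating enzyme, followed at 0.122, and AT1G50110, annotated as an aminotransferase-like protein, at 0.126. AAE18 went from 8.06 and 7.89 RPKM in WT to 2.74 to 3.16 RPKM in nga and 3.15 to 4.04 RPKM in 35S:NGA. All 3 were chosen for this likeness, which is a description.

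The wider trichome pathway was followed in 43 genes of 6 lists, of which 29 passed the filter. In nga against WT 4 fell, 3 rose and 22 were not called, where 16.9% of all tested genes were called, with a median difference of -0.08 against -0.00 for all tested genes. Against nga, 35S:NGA had 1 lower and 2 higher, where 5.34% of all tested genes were called, with a median of -0.01 against 0.00. For 35S:NGA against WT limma called 0, where 0.152% of all tested genes were called, with 10 at an unadjusted p under 0.05, as were 20.4% of all tested genes, and a median of 0.01 against 0.02.

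Of the 9 activator complex genes 5 were tested, and none was called in nga against WT, where 16.9% of all tested genes were. TTG1 (AT5G24520), the WD40 subunit, was at 31.1 and 32.9 RPKM in WT and between 28.6 and 39.4 RPKM in the other libraries. EGL3 (AT1G63650), the bHLH closest to GL3, was at 8.01 and 9.12 RPKM in WT, 4.73 to 9.48 RPKM in nga and 4.47 to 5.67 RPKM in 35S:NGA. The R2R3 MYB genes MYB23 and WER, which can act in place of GL1, were under 1 RPKM in every library, MYB23 at 0.0381 RPKM or less and WER at 0.0530 to 0.798 RPKM. MYC1 (AT4G00480), another bHLH of trichome initiation, was at 5.29 and 5.34 RPKM in WT, 6.88, 5.59 and 8.61 RPKM in nga, and 2.53, 2.80 and 3.26 RPKM in 35S:NGA. It fell by 1.04 ± 0.16 in 35S:NGA against nga (adjusted p = 0.0112, limma), a call lost without nga 1 (difference of -1.05, adjusted p = 0.0507) or 35S:NGA 2 (-1.03, 0.0532) and with the lane as a term (-1.18, 0.0830). MYC1 was the 1 call among the 5 tested genes there, where 5.34% of all tested genes were called.

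SPL factors, which activate TCL1 and TRY in inflorescences and are held down by miR156 in young plants, were followed in 4 genes, all tested, of which SPL3 was called in nga against WT and SPL9, SPL10 and SPL15 were not. SPL3 (AT2G33810) was at 100.4 and 87.7 RPKM in WT, 313, 294 and 130 RPKM in nga, and 107, 77.6 and 85.1 RPKM in 35S:NGA. All nga libraries were above the others, and SPL3 rose by 1.28 ± 0.36 in nga against WT (adjusted p = 0.0452, limma). SPL9 (AT2G42200) was at 54.9 and 65.2 RPKM in WT, 37.2, 24.0 and 40.2 RPKM in nga, and 27.8, 41.3 and 31.3 RPKM in 35S:NGA. Like TCL1 it was higher in both WT libraries than in all others. Of all tested genes 57.1% did not overlap between WT and nga, and 46.5% between WT and 35S:NGA. At -0.84 ± 0.25 in nga against WT SPL9 missed the threshold (adjusted p = 0.0519, limma), and in 35S:NGA against WT as well (adjusted p = 0.149). Of the 4 tested SPL genes 1 was called in nga against WT and 0 in the other comparisons. In each comparison 2 of the 4 were at an unadjusted p under 0.05, as were 36.3% of all tested genes between nga and WT, 24.7% between 35S:NGA and nga and 20.4% between 35S:NGA and WT.

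Among 14 targets and later steps, 10 of them tested, 3 fell and 1 rose in nga against WT, where 7.65% of all tested genes were called lower and 9.26% higher. SIM (AT5G04470), a cyclin-dependent kinase inhibitor that lets trichomes endoreduplicate, was at 22.7 and 16.3 RPKM in WT, 9.53, 6.92 and 8.04 RPKM in nga, and 31.2, 24.7 and 27.9 RPKM in 35S:NGA. The 3 groups did not overlap in SIM, and the share of all tested genes with no overlap over 3 groups was not counted. SIM fell by 1.16 ± 0.19 in nga against WT (adjusted p = 0.0140, limma) and rose by 1.66 ± 0.17 in 35S:NGA against nga (adjusted p = 0.00164). STI (AT2G02480), needed for trichome branching, was at 11.8 and 11.5 RPKM in WT, 6.62 to 8.75 RPKM in nga and 8.20 to 8.51 RPKM in 35S:NGA. It fell by 0.52 ± 0.14 in nga against WT (adjusted p = 0.0400, limma). ZWI (AT5G65930), a kinesin of trichome branching, was at 18.7 and 18.9 RPKM in WT, 11.7 to 14.8 RPKM in nga and 14.2 to 15.4 RPKM in 35S:NGA. It fell by 0.47 ± 0.13 in nga against WT (adjusted p = 0.0422, limma). In 35S:NGA too, STI and ZWI lay below both WT libraries, where 46.5% of all tested genes did not overlap. Neither was called in 35S:NGA against WT (adjusted p = 0.165 for STI and 0.214 for ZWI, limma).

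MYB16 (AT5G15310), a MIXTA-like factor of epidermal cell shape and cuticle, moved the other way. It was at 9.93 and 10.2 RPKM in WT, 24.0, 30.1 and 27.0 RPKM in nga, and 12.6, 11.3 and 23.8 RPKM in 35S:NGA. It rose by 1.33 ± 0.28 in nga against WT (adjusted p = 0.0226, limma), and among the 35S:NGA libraries the one on lane 8 lay near nga. TBR (AT5G06700), needed for cellulose in trichome walls, was at 26.5 and 27.6 RPKM in WT, 23.6, 24.6 and 22.4 RPKM in nga, and 34.4, 32.5 and 33.4 RPKM in 35S:NGA. It rose by 0.49 ± 0.09 in 35S:NGA against nga (adjusted p = 0.0244, limma). The groups did not overlap in TBR, with nga lowest and 35S:NGA highest. Between 35S:NGA and nga 26.4% of all tested genes did not overlap, and the share over all 3 groups was not counted. The call of TBR was lost without nga 1, 35S:NGA 1, 35S:NGA 2 or 35S:NGA 3 (differences of 0.47 to 0.51, adjusted p = 0.0532 to 0.0910, limma). It was also lost without WT 1 or WT 2 (difference of 0.49 in each) and in a fit of only nga and 35S:NGA (0.49, adjusted p = 0.0624, limma). With the lane as a term the calls of TBR (0.56, adjusted p = 0.178) and SIM (1.68, adjusted p = 0.0955) were lost while the differences were no smaller.

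Of the 5 epidermal homeodomain factors, all tested, only HDG11 was called in nga against WT, where 16.9% of all tested genes were called. HDG11 (AT1G73360), known for limiting trichome branching, was at 9.27 and 9.73 RPKM in WT, 6.35, 5.50 and 5.16 RPKM in nga, and 7.01, 8.74 and 5.54 RPKM in 35S:NGA. It fell by 0.66 ± 0.18 in nga against WT (adjusted p = 0.0443, limma). The anthocyanin branch shares TTG1 and the bHLH proteins with the trichome pathway. Of its 6 genes 3 were tested, and only MYBL2 was called in nga against WT, where 16.9% of all tested genes were called. MYBL2 (AT1G71030), itself a single-repeat MYB repressor, was at 2.47 and 2.67 RPKM in WT, 21.1, 41.5 and 14.1 RPKM in nga, and 10.5, 6.56 and 11.8 RPKM in 35S:NGA. It rose by 2.76 ± 0.40 in nga against WT (adjusted p = 0.0116, limma), with its highest level in nga 2. None of the 2 tested of 5 C2H2 zinc finger genes was called in any comparison by limma, also at an unadjusted p under 0.05.

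The 7 calls of pathway genes in nga against WT were all lost without WT 1 (adjusted p = 0.0788 to 0.177) and without WT 2 (0.0756 to 0.252). Without nga 1 or nga 2, those of SPL3, STI, ZWI, MYB16 and HDG11 were lost too (adjusted p = 0.0584 to 0.115). Within lane 6 alone ZWI was not called (adjusted p = 0.0614, limma). The call of HDG11 was also lost without nga 3 (0.0589), and those of SPL3, STI, ZWI and HDG11 without 1 or more of the 35S:NGA libraries (0.0595 to 0.0642). The direction was the same in each of these fits.

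**Figure D5:**
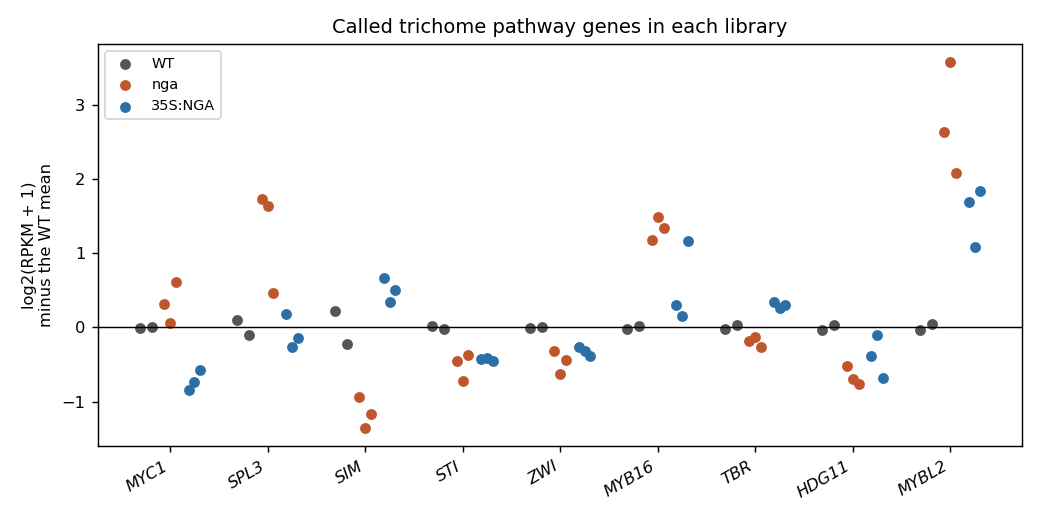
Level of the 9 pathway genes called in any comparison, as log2(RPKM + 1) minus the mean of the WT libraries (vertical axis), with a point for each library and a colour for each group. SIM lies below WT in all nga libraries and above the WT mean in all 35S:NGA libraries, and MYBL2 is highest in nga.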

How the data were processed

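RNA of hand-picked carpels was made into TruSeq libraries, and the authors deposited 1 table of RPKM values per library, with decimal commas, per the file headers. Per the submitters' processing notes, FastQC was used and the genome was TAIR10. Which aligner and which counter were run is not given in the sources used here. Of 33590 entries, 6374 without a gene model, 18 duplicated and 1 malformed were left out, which gave 27197 loci, 26710 of them matched to the TAIR10.1 annotation. No 2 libraries held identical values.

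Mapped reads were recovered from RPKM steps of single-transcript genes under 0.15 RPKM. Reads per gene used the smallest length that made all 8 values whole within 0.001 reads, so they may be fractions of the true counts. Intervals are exact Poisson at 95%, with a floor of 3 reads.

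Log2(RPKM + 1) was tested with limma 3.58.1 (R 4.3.3, mean-variance trend, 3 groups in 1 fit), with Benjamini-Hochberg adjustment and a threshold of 0.05, and was checked on simulated data. Other steps used pandas 2.3.3, numpy 2.4.6 and scipy 1.17.1 in Python 3.11.15, with figures from matplotlib 3.10.9. The genes and lists were chosen with earlier results of these data known. Named were all 10 genes, pathway genes called in any comparison, the 3 loci most like TCL1 and the neighbours of the row. NGA1, NGA2, NGA3, NGA4, CCA1, TTG1, EGL3, MYB23, WER, SPL9, SPL10 and SPL15 were added after their values were seen. Alternatives covered the pseudocount, filter, scaling, fit, replicate block, lane and leaving out each library.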

Additional observations from a re-analysis of the deposited data

How the results depend on the processing

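TCL1 was called lower in nga against WT in 17 of 19 settings and TRY higher in 16 of 19, with losses only where a library named in the report was left out. The WT libraries also served to pick TCL1, and all settings reuse them, so its count of settings is no separate support for its fall. Over the fits without 1 library, TCL1 ran from -1.05 to -0.99 and TRY from 0.98 to 1.39. The count of the 5 genes called in nga against WT was 0 to 2 over those fits, and that in 35S:NGA against nga 0 to 1. Without the filter the latter was also 1, namely TCL2, whose reads are at or under the floor. Some tested differences turned direction, and none of these was called. ETC3 in 35S:NGA against nga turned with the lane as a term (-0.19). GL1 in nga against WT turned with the replicate block (-0.046), in the fit with lane (-0.017) and without nga 3 (-0.017, in a range up to 0.31). GL2 in 35S:NGA against nga turned with quantile normalization (-0.11) and in the fit with lane (-0.26). It also turned without nga 2 or 35S:NGA 2 (-0.057, in a range up to 0.22) and without 35S:NGA 1 (-0.049). TCL1 in 35S:NGA against nga, which had no test, turned from -0.08 to 0.04 without 35S:NGA 1. The cause was not tested.

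Pathway calls in nga against WT were 4 without the filter and 4 in a fit of only these groups, against 7, and 0 to 8 without 1 library. The calls of SPL3, STI and ZWI were lost in both of these fits and that of HDG11 without the filter (adjusted p = 0.0549 to 0.0843). Between 35S:NGA and nga they were 5 with the replicate block and 0 with the lane as a term, against 3, and 1 to 5 without 1 library. Between 35S:NGA and WT they were 1 in a fit of only these groups, and 0 to 1 without 1 library. Calls over all genes in nga against WT were 3008, with 1744 in a fit of only these groups, 6005 with the lane as a term, 5562 within lane 6 and 41 to 5135 without 1 library. For 35S:NGA against nga they were 949, with 608 at a mean of 5 RPKM or more, 576 in a fit of only these groups, 145 with the lane as a term and 355 to 2517 without 1 library. For 35S:NGA against WT they were 27, with 81 at a pseudocount of 0.1, 56 at a mean of 5 RPKM or more, 74 after quantile normalization, 344 in a fit of only these groups, 14 with the lane as a term and 1 to 284 without 1 library.

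Libraries that share a replicate number gave mixed correlations of their deviations from the group means, at 0.35 and 0.37 between WT and 35S:NGA, -0.26 and -0.07 between WT and nga, and 0.10, -0.15 and 0.24 between nga and 35S:NGA. With only 2 WT libraries their deviations are mirror images, so each correlation of WT 2 is that of WT 1 with the sign changed. The values of WT 1 and WT 2 are therefore not separate observations. The labels name no shared origin and not every pair deviated together, so the numbers are not taken to pair the libraries. With the replicate block TCL1 differed by -1.07 and TRY by 1.27 in nga against WT, both called, while the calls of ZWI (adjusted p = 0.0523) and HDG11 (0.0560) were lost, and calls over all genes were 3892 between nga and WT, 1092 between 35S:NGA and nga, and 22 between 35S:NGA and WT. WT 1, WT 2 and nga 3 correlated best with the 35S:NGA library of their own number, and nga 1 and nga 2 with one of another number. The analysis within lanes that hold both groups could be made for nga against WT alone. Depth limits what can be seen of TCL2, ETC2, ETC1, GL1 and GL3, which had 0 to 27 reads per library.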
